A study of Mus musculus with 8 samples.

Results

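The complement genes described here are 9 of the 54146 genes in the count table: *C1qa*, *C1qb*, *C1qc*, *C3*, *Cfb*, *Cfp*, *C6*, *C3ar1*, and *C5ar1*. They were taken by gene symbol as a list of complement components and receptors. All 9 passed the filter on low counts (a minimum of 10 counts in 4 or more of the 8 libraries) that 17095 genes passed. In a paired edgeR fit, 1 of them, *C6*, differed between FCGR4+ and FCGR4- macrophages at an adjusted *P* under 0.1, as did 1.27% of all genes tested. By DESeq2, the test in the authors' methods, 6 of the 9 did, as did 5.99% of all genes. Bulk RNA-Seq had been made from macrophages of the epididymal white adipose tissue (eWAT) of 4 male C57Bl6 mice, with 1 FCGR4+ and 1 FCGR4- library from each mouse, to learn how eWAT macrophages that carry Fc γ receptor 4 on their surface differ from those that do not. All 4 mice had eaten a high-fat, high-cholesterol diet ad libitum for 24 weeks and had then been kept for 2 weeks on short-term caloric restriction (stCR), with 30% less food. Mice without stCR were not part of the comparison, so every value below belongs to the restricted state. Cells were sorted as CD45+, CD11b+, and negative for CD3, B220, Ly6G, and SiglecF, and then by FCGR4.

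Complement is a set of plasma and tissue proteins that mark microbes and dying cells for removal. C1q, built from the products of *C1qa*, *C1qb*, and *C1qc*, starts the classical pathway when it binds antibody complexes or apoptotic cells, and tissue macrophages are a main source of it. C3 is the protein on which all pathways meet, factor B and properdin drive the alternative pathway that amplifies its cleavage, and C6 is a part of the membrane attack complex at the end of the cascade. The small fragments released from C3 and C5 act on the receptors made from *C3ar1* and *C5ar1*.

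Total counts per library lay between 35992794 and 66856746, and values are given as normalized CPM, which are counts rescaled for library size by TMM. A level of 3 counts, taken as the floor, equals 0.0440 to 0.0883 on this scale, below every member's value in every library. *Fcgr4* itself, the gene of the sorted protein, was measured at 215, 139, 208, and 236 normalized CPM in the FCGR4+ libraries of mice 1 to 4 and at 48.5, 52.2, 81.1, and 82.9 in the FCGR4- libraries (log2 fold change 1.61 ± 0.17 SE, adjusted *P* = 0.0162). This and, unless another is named, every adjusted *P* below is from the paired quasi-likelihood fit of edgeR, in which mouse is the blocking factor, with Benjamini-Hochberg adjustment over the 17095 genes. Both populations carried the macrophage label in their RNA. The sum of 8 macrophage markers lay between 21732 and 46149 normalized CPM in FCGR4+ and between 18695 and 43515 in FCGR4- libraries, and none of the 8 passed the test. *Lyz2* gave most of each sum (16762 to 39810 in FCGR4+ and 14387 to 38655 in FCGR4- libraries), so the sums say little about the other markers. Markers of several other cell types were lower in FCGR4+ libraries and are given beside the genes they move with. In bulk RNA, fewer cells of a type and less RNA per cell cannot be told apart.

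The stretches upstream of 4 genes are shown because these genes carry the patterns below: the tightly linked *C1qb* and *C1qc*, and *C3* and *C6*, which had the lowest fold changes of the set. Each is the 250 bases before the start that RefSeq gives the gene on GRCm38.p6, 5′ to 3′ on the gene's strand, and 7 of the 9 genes could be matched. RefSeq's starts differ for some genes from the coordinates in the count table, given with each gene below, and for *C1qc* and *C6* the stretch reaches into the gene as counted. Capitals mark matches to 6 motifs searched on both strands, of which PU.1 and C/EBP are myeloid transcription factors. The *C1qb* stretch is chr4:136886201-136886450 (minus strand), that of *C1qc* chr4:136892915-136893164 (minus strand), that of *C3* chr17:57228137-57228386 (minus strand), and that of *C6* chr15:4726960-4727209 (plus strand).
C1qb: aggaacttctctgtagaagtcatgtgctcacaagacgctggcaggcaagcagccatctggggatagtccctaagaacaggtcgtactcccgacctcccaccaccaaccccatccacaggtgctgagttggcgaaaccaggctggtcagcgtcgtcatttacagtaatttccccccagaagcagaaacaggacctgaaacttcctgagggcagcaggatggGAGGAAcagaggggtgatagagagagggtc
C1qc: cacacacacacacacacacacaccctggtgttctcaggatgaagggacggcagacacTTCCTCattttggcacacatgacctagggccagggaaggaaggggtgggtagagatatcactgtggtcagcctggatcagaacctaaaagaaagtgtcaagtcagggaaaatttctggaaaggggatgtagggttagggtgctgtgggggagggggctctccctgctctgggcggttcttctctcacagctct
C3: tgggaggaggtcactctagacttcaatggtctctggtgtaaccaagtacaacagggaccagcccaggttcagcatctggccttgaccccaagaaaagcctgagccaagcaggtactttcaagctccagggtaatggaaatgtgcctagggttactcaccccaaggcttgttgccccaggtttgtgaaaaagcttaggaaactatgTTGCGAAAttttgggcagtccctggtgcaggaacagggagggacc
C6: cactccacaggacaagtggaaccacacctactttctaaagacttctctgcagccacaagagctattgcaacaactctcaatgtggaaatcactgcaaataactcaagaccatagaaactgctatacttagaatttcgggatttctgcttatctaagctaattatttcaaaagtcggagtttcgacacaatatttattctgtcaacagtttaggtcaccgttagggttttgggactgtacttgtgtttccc

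The *C1qb* stretch held 1 PU.1 core (GAGGAA) 30 to 25 bases before the start, and the *C1qc* stretch held the same core on the other strand 193 to 188 bases before the start. The *C3* stretch held 1 C/EBP match (TTGCNNAA) 45 to 38 bases before the start. Of the 3 matched genes not shown, *C5ar1* held 1 interferon regulatory factor motif 66 to 58 bases before its start, and *Cfp* and *C3ar1* held no match, as did *C6*. Such letters are common: of 32851 promoter stretches of this length, 23.3% held the PU.1 core and 9.56% the C/EBP motif. The other motifs searched were the MAF half-site TGCTGAC (held by 3.81% of the stretches), the interferon regulatory factor motif GAAANNGAA (7.13%), the STAT site TTCNNNGAA (7.02%), and the NF-kB site GGANTTTCC (1.07%). These matches describe the sequence only and do not show that a factor binds there.

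Of the 9 genes, 6 had a positive and 3 a negative log2 fold change, with a median of 0.37, against a median of -0.00 over all 17095 genes tested. In the paired edgeR fit, 0 of the 9 were higher and 1 was lower in FCGR4+ macrophages at an adjusted *P* under 0.1, where 1.27% of all genes tested were called (0.0819% higher and 1.19% lower). At an unadjusted *P* under 0.05 were 6 of the 9, against 9.77% of all genes. The ratio had the same sign in 4 of 4 mice for 6 genes: positive for *C1qa*, *C1qb*, *C1qc*, and *C3ar1*, and negative for *C3* and *C6* (8.35% and 10.4% of all genes, respectively). The FCGR4+ and FCGR4- libraries did not overlap for *C1qa*, *C1qb*, and *C3*, against 3.91% of all genes (0.883% with FCGR4+ higher, as for the first 2, and 3.02% with FCGR4+ lower). DESeq2, the test in the authors' methods, called 6 of the 9 with the same paired model, where it called 5.99% of all genes (1.12% higher and 4.87% lower). These were the 3 C1q genes and *C3ar1*, higher, and *C3* and *C6*, lower. The edgeR fit with no filter on low counts called 5 (the same genes without *C3ar1*), where it called 2.77% of all genes (0.418% higher and 2.35% lower). With edgeR's newer quasi-likelihood estimate, 2 of the 9 were called, both lower (*C3* and *C6*), where 3.7% of all genes were called (0.333% higher and 3.36% lower). With no mouse block edgeR called none of the 9, where it called 0.281% of all genes.

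**Figure D1:**
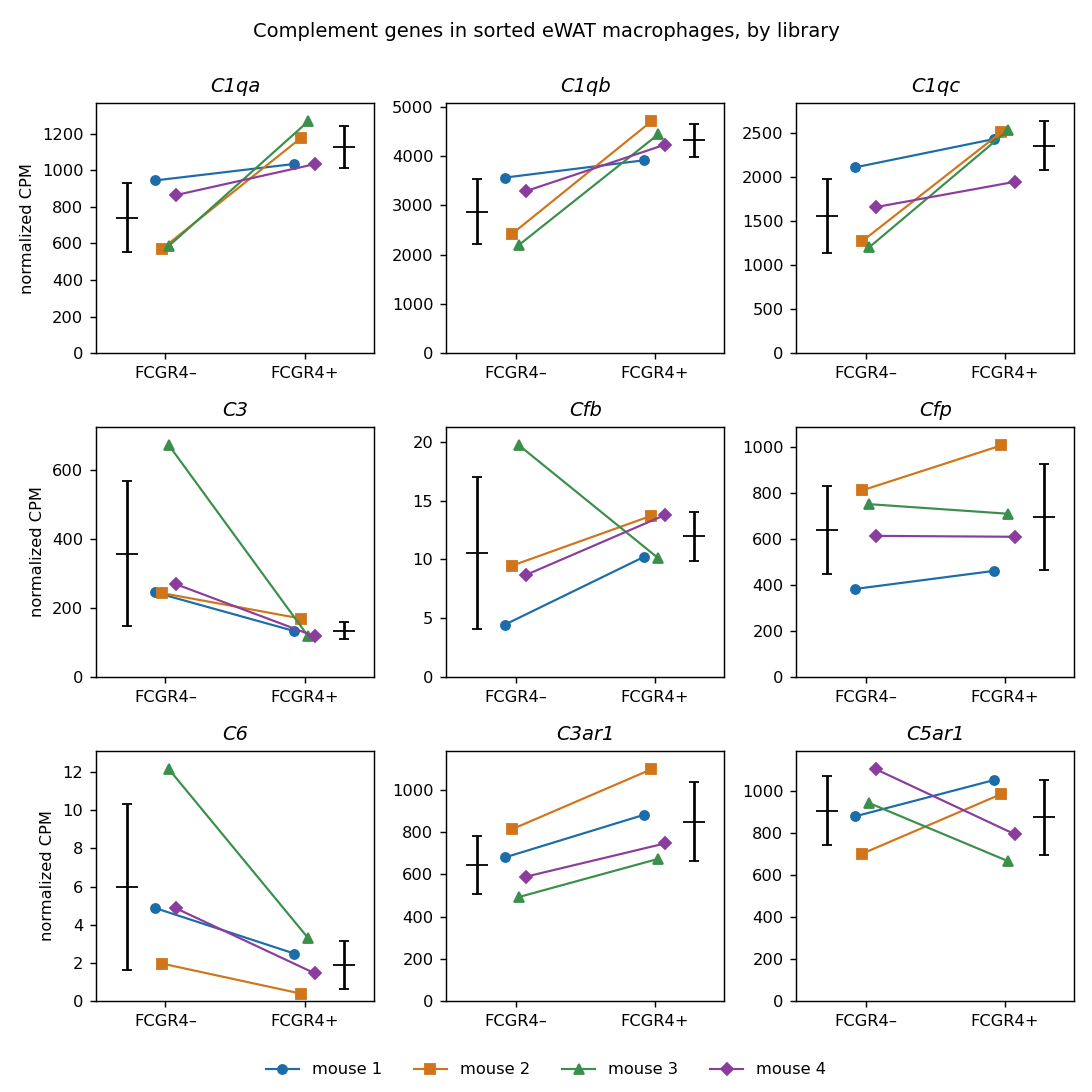
Normalized CPM of the 9 complement genes in each library, with FCGR4- on the left and FCGR4+ on the right of each panel; lines join the libraries of 1 mouse, and the bars beside them are the mean ± SD of 4 mice. The FCGR4+ point is the higher one in all 4 mice for the C1q genes and *C3ar1* and the lower one in all 4 for *C3* and *C6*, with the widest *C3* gap in mouse 3, while the lines of *Cfb*, *Cfp*, and *C5ar1* run in both directions.

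The C1q genes were the most abundant members per length, as given further on. *C1qb*, which encodes the B chain of C1q (ENSMUSG00000036905.8, mm10 chr4:136880129-136886187), was measured in FCGR4+ macrophages at 3917, 4704, 4443, and 4235 normalized CPM in mice 1 to 4 and in FCGR4- macrophages at 3566, 2424, 2200.4, and 3291. The lowest FCGR4+ library thus lay above the highest FCGR4- library, and the means were 4325 ± 333 and 2870.2 ± 660.4 (SD, n = 4). The log2 fold change was 0.62 ± 0.18 (SE), with an adjusted *P* of 0.297, which did not pass the threshold. *C1qa*, the A chain (ENSMUSG00000036887.5, chr4:136895917-136898803), was measured at 1034, 1177, 1267, and 1034 normalized CPM in FCGR4+ and at 944, 571, 587, and 864 in FCGR4- macrophages, again without overlap. Its log2 fold change was 0.64 ± 0.21 (adjusted *P* = 0.345). *C1qc*, the C chain (ENSMUSG00000036896.5, chr4:136889804-136893065), was measured at 2434, 2511, 2535, and 1948 normalized CPM in FCGR4+ and at 2112, 1273, 1204, and 1661 in FCGR4- macrophages. Here the FCGR4+ library of mouse 4 lay below the FCGR4- library of mouse 1, so the populations overlapped, although each mouse's FCGR4+ library was the higher one. The log2 fold change was 0.62 ± 0.19 (adjusted *P* = 0.321).

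The 3 chains had like ratios within each mouse, and the mice differed from each other. The log2 ratio of FCGR4+ over FCGR4- lay between 0.13 and 0.21 for the 3 chains in mouse 1 and between 0.23 and 0.36 in mouse 4, but between 0.96 and 1.04 in mouse 2 and between 1.01 and 1.11 in mouse 3. Within a mouse the chains thus differed by at most 0.13 on the log2 scale. The spread between mice was larger on the FCGR4- side: the summed C1q level lay between 7217 and 8392 normalized CPM in FCGR4+ libraries (7810 ± 594 SD, n = 4) and between 3991 and 6621 in FCGR4- libraries (5174 ± 1255), the lowest being those of mice 2 and 3. The summed genes took 0.714% to 0.801% of all counts in FCGR4+ and 0.403% to 0.691% in FCGR4- libraries. The 3 genes lie side by side on the minus strand of chromosome 4 within 18675 bases, with 3616 bases between *C1qb* and *C1qc* and 2851 between *C1qc* and *C1qa*. No stretch of 50 bases in their transcripts occurs in another gene of the reference annotation, so their counts are not shared with a copy.

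A macrophage marker outside the complement set behaved in a like way. *Adgre1*, which encodes the F4/80 antigen, was measured at 2386, 1463, 1143, and 1302 normalized CPM in the FCGR4+ libraries of mice 1 to 4 and at 2031, 802, 684, and 1019 in the FCGR4- libraries. It was higher on the FCGR4+ side in each mouse (log2 fold change 0.55, adjusted *P* = 0.261), and its gap was widest in mice 2 and 3, as for C1q. The part of a general shift in macrophage RNA in the C1q values was not tested.

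**Figure D2:**
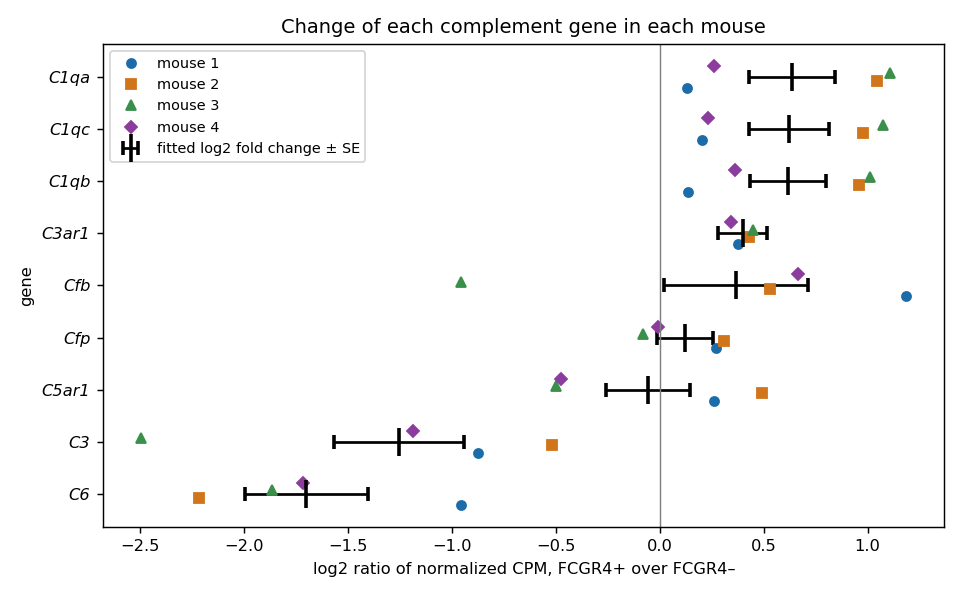
Log2 ratio of normalized CPM, FCGR4+ over FCGR4-, of each complement gene in each mouse (colored symbols), with the fitted log2 fold change ± SE in black. The C1q chains share 1 pattern, with mice 1 and 4 near 0.13 to 0.36 and mice 2 and 3 near 0.96 to 1.11, *C3ar1* is alike in the 4 mice, and *C3* is spread from -0.52 in mouse 2 to -2.50 in mouse 3.

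Compared per length (normalized CPM per kilobase of exon), *C1qb* stood far above the other chains. In FCGR4+ macrophages the levels per kilobase were 3975 ± 306 for *C1qb*, 1221 ± 143 for *C1qc*, and 1085 ± 110 for *C1qa* (SD, n = 4), and in FCGR4- macrophages they were 2638 ± 607, 809 ± 216, and 713 ± 183. *C1qb* exceeded *C1qa* between 3.35 and 4.06 times per length over the 8 libraries, and *C1qc* exceeded *C1qa* between 1.01 and 1.27 times. The ranges of *C1qc* and *C1qa* over the mice overlapped in both populations, although *C1qc* was the higher one in each of the 8 libraries. The ratio of *C1qb* to *C1qa* was 3.68 ± 0.25 in FCGR4+ and 3.72 ± 0.23 in FCGR4- macrophages. The chains thus kept their proportions to each other while their summed level differed between libraries.

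**Figure D3:**
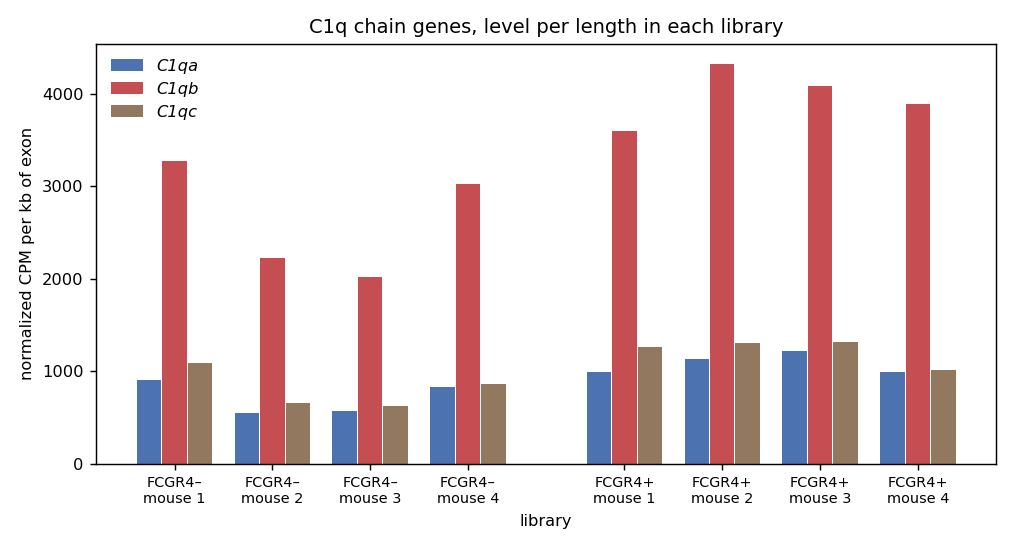
Level of the 3 C1q chain genes in each of the 8 libraries, as normalized CPM per kilobase of exon, with FCGR4- libraries on the left. *C1qb* is the highest bar in every library, 3.35 to 4.06 times *C1qa*, and the 3 bars are lowest together in the FCGR4- libraries of mice 2 and 3.

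*C3* went the other way. The gene (ENSMUSG00000024164.15, chr17:57203970-57228136) was measured at 134, 169.7, 119, and 118 normalized CPM in FCGR4+ macrophages of mice 1 to 4 and at 246, 244, 671, and 269 in FCGR4- macrophages. Every FCGR4- library lay above every FCGR4+ library, and that of mouse 3 stood apart from the other 3. The means were 135 ± 24.1 and 357 ± 209 (SD, n = 4), a log2 fold change of -1.26 ± 0.31 (SE) with an adjusted *P* of 0.196, which did not pass the threshold. Without mouse 3 the log2 fold change was -0.87 (adjusted *P* = 0.140). The adjusted *P* of *C3* was under 0.1 in 4 of 13 other fits: 7.5e-04 by DESeq2, 4.6e-05 with no filter, 0.0786 with edgeR's newer quasi-likelihood estimate, and 0.0996 with at least 10 counts required in every library. As the opposite directions of these genes imply, the C1q genes had 49.4 to 69.3 counts for each count of *C3* in FCGR4+ libraries and 5.95 to 27.0 in FCGR4- libraries.

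The genes of the alternative pathway had no such pattern. *Cfp*, which encodes properdin, the stabilizer of the C3 convertase (ENSMUSG00000001128.7, chrX:20925454-20931555), was measured at 462, 1006, 709, and 609 normalized CPM in FCGR4+ and at 383, 811, 751, and 613 in FCGR4- macrophages. The mice differed more from each other than the populations did, with mouse 2 highest and mouse 1 lowest on both sides, and the log2 fold change was 0.12 ± 0.13 (adjusted *P* = 0.756). *Cfb*, which encodes factor B, the protease of that convertase (ENSMUSG00000090231.10, chr17:34856374-34862518), was measured at 10.2, 13.7, 10.1, and 13.8 normalized CPM in FCGR4+ and at 4.48, 9.48, 19.7, and 8.69 in FCGR4- macrophages. The FCGR4- range contained the whole FCGR4+ range, with mouse 3 again highest among FCGR4- libraries, and the log2 fold change was 0.37 ± 0.35 (adjusted *P* = 0.722). The level of *Cfb* is uncertain, because 79.5% of its exonic bases also belong to the read-through gene *Gm20547*, and pairs on bases of 2 genes were left uncounted. *Gm20547* itself had at most 1 count in any library. *Cfd*, which encodes factor D, the activating protease known as adipsin from adipocytes, was barely present, at 0.17 to 1.02 normalized CPM in FCGR4+ and 0.26 to 1.17 in FCGR4- libraries.

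*C6*, a terminal component (ENSMUSG00000022181.16, chr15:4727175-4814967), was the only member past the threshold, and it was the least abundant of the 9. It was measured at 2.50, 0.40, 3.31, and 1.45 normalized CPM in FCGR4+ macrophages of mice 1 to 4, from 148, 19, 207, and 70 counts, and at 4.88, 1.97, 12.1, and 4.86 in FCGR4- macrophages, from 317, 67, 672, and 332 counts. The populations overlapped, since the FCGR4- library of mouse 2 lay below the FCGR4+ libraries of mice 1 and 3, but the FCGR4+ library was the lower one in each mouse. *C6* fell by 1.70 ± 0.30 (SE) on the log2 scale in FCGR4+ macrophages (adjusted *P* = 0.0699), and the means were 1.91 ± 1.26 and 5.96 ± 4.34 normalized CPM (SD, n = 4). The direction held in each of the 13 other fits, but the call did not: the adjusted *P* was between 0.109 and 0.209 without any 1 of the 4 mice, and 0.740 with no mouse block.

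Markers of several other cell types moved in the direction of *C3* and *C6*. The gate was set to remove neutrophils, T cells, and B cells by Ly6G, CD3, and B220, and fibroblasts, preadipocytes, and mesothelial cells by CD45 and CD11b. The sum of 8 fibroblast and preadipocyte markers lay between 140 and 284 normalized CPM in FCGR4+ and between 340.1 and 1472 in FCGR4- libraries, lower in FCGR4+ in 4 of 4 mice, with 4 of the 8 genes called lower. The highest sum belonged to the FCGR4- library of mouse 3, the library that was also highest in *C3* and *C6*. The sum of 6 mesothelial markers (1.06 to 9.84 against 5.09 to 46.4) and that of 6 neutrophil markers (71.99 to 489.9 against 341 to 2098) were highest in that library as well, with 1 of 6 and 5 of 6 genes called lower. Mast cell and basophil markers lay between 5.85 and 22.2 normalized CPM in FCGR4+ and between 180.2 and 1914 in FCGR4- libraries, with 6 of 7 called lower, but were highest in mouse 1. *Tpsab1*, *Ms4a2*, and *Mcpt8* of this list were at 0 in at least 1 library, whereas every fibroblast, mesothelial, and neutrophil marker had counts in all 8. Dendritic cell markers (6.56 to 15.3 against 41.0 to 92.3) and T and NK cell markers (3.49 to 8.46 against 13.8 to 41.8) were lower too, with 3 of 7 and 4 of 6 called lower and *Xcr1*, *Siglech*, and *Ncr1* at 0 in at least 1 library. B cell markers overlapped (11.98 to 19.2 against 7.09 to 28.5), with 0 of 4 called and *Ms4a1* and *Pax5* at 0 in at least 1 library. The 6 endothelial and 6 adipocyte markers had none called (*Tie1* was at 0 in at least 1 library), and of 7 monocyte markers 1 was called higher and 1 lower. The part of these cells in the *C3* and *C6* values was not tested.

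**Figure D4:**
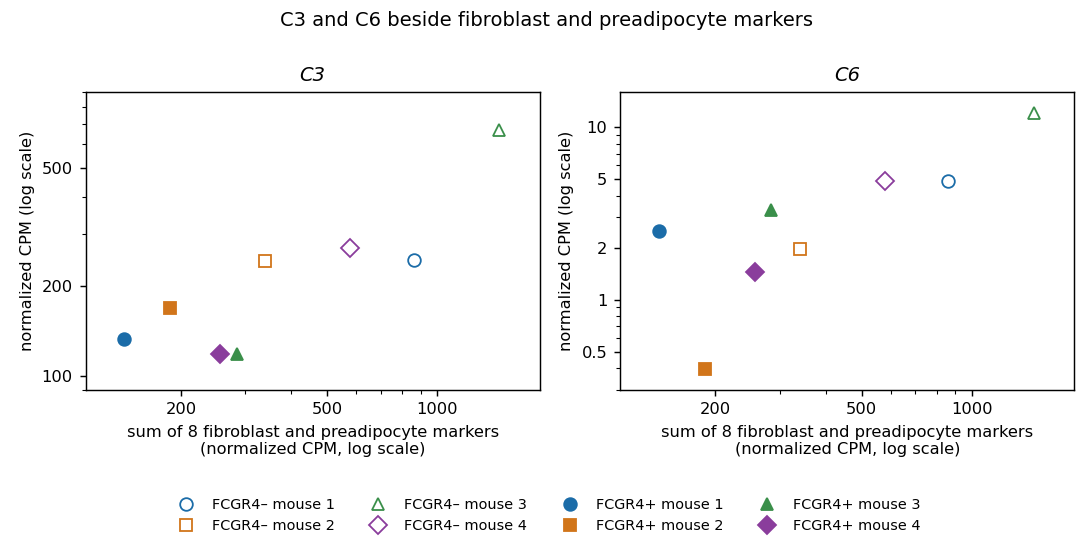
*C3* (left) and *C6* (right) in each library on the vertical axis against the summed level of 8 fibroblast and preadipocyte markers on the horizontal axis, both in normalized CPM on log scales, with open symbols for FCGR4- and filled symbols for FCGR4+ libraries. The FCGR4- library of mouse 3 is highest on all 3 measures (671 for *C3*, 12.1 for *C6*, 1472 for the markers), and the marker sums of the 2 populations do not overlap.

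The receptors for the C3 and C5 fragments differed from each other in pattern. *C3ar1*, which encodes the C3a receptor (ENSMUSG00000040552.8, chr6:122847138-122856161), was measured at 882, 1096, 673, and 746 normalized CPM in FCGR4+ and at 679.9, 813, 493, and 589 in FCGR4- macrophages. Mouse 2 was highest and mouse 3 lowest on both sides, so the populations overlapped, and within each mouse the FCGR4+ library was higher by a like amount, with log2 ratios of 0.37, 0.43, 0.45, and 0.34. The log2 fold change was 0.40 ± 0.12 (adjusted *P* = 0.300). By DESeq2 its adjusted *P* was 0.0271, while in the edgeR fit with no mouse block, where the spread between mice enters the error, it was 0.919. *C5ar1*, which encodes the C5a receptor (ENSMUSG00000049130.6, chr7:16246743-16259540), was measured at 1054, 987, 666, and 794 normalized CPM in FCGR4+ and at 881, 703, 944, and 1104 in FCGR4- macrophages. FCGR4+ was the higher library in mice 1 and 2 and the lower in mice 3 and 4, with log2 ratios of 0.26, 0.49, -0.50, and -0.48. The fitted log2 fold change was therefore near 0, at -0.06 ± 0.20 (adjusted *P* = 0.933). The library names of mice 1 and 2 share a prefix, and so do those of mice 3 and 4. Within these pairs, the log2 fold change of *C5ar1* was 0.37 in mice 1 and 2 and -0.51 in mice 3 and 4. A test of this difference as an interaction term in edgeR gave 0.86 on the log2 scale (adjusted *P* = 0.303). Within the same pairs, the log2 fold change was 0.59 and 0.66 for *C1qa*, 0.40 and 0.37 for *C3ar1*, -0.70 and -1.86 for *C3*, and -1.57 and -1.83 for *C6*.

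Per kilobase of exon, the order of the 9 genes was the same in both populations. After the C1q genes came *Cfp* (401 ± 132 in FCGR4+ and 368 ± 109 in FCGR4- macrophages) and *C5ar1* (341 ± 69.1 and 353 ± 64.6), whose ranges overlapped in both. *C3ar1* followed (197 ± 43.2 and 149.5 ± 31.7), then *C3* (26.3 ± 4.69 and 69.5 ± 40.7), *Cfb* (4.23 ± 0.73 and 3.75 ± 2.28), and *C6* (0.54 ± 0.36 and 1.68 ± 1.22). In FCGR4+ macrophages the ranges of *C3ar1*, *C3*, *Cfb*, and *C6* were separate from each other. In FCGR4- macrophages *C3ar1* overlapped *C3*, through mouse 3, and *Cfb* overlapped *C6*. Among all 17095 genes tested, ranked by level per length, *C1qb* was number 30, *C1qc* number 68, and *C1qa* number 76, whereas *C3* was number 1405 and *C6* number 11080.

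Of 47 further complement genes, 33 had enough counts to be tested, and of these 0 were higher and 2 were lower in FCGR4+ macrophages, against 0.0819% and 1.19% of all genes. Their median log2 fold change was -0.41, 24 of the 33 were negative, and 12 were lower in 4 of 4 mice while 1 was higher, against a median of -0.00 and shares of 10.4% and 8.35% over all genes. *C1s1*, which encodes the C1s protease that C1q activates through C1r, was measured at 7.72, 7.05, 6.72, and 10.6 normalized CPM in FCGR4+ and at 39.2, 19.2, 63.3, and 23.3 in FCGR4- macrophages. It fell by 2.04 ± 0.35 on the log2 scale (adjusted *P* = 0.0687), without overlap between populations. Without mouse 1 or mouse 2 it no longer passed (adjusted *P* = 0.218 and 0.143). *Cd55*, which encodes decay-accelerating factor, a membrane inhibitor of the C3 convertases, was measured at 8.03, 4.83, 10.6, and 5.13 normalized CPM in FCGR4+ and at 39.0, 15.6, 27.99, and 9.57 in FCGR4- macrophages. It fell by 1.57 ± 0.24 (adjusted *P* = 0.0546), and without mouse 1 or mouse 2 its adjusted *P* was 0.137 and 0.158. The marker sums of other cell types that were also lower in FCGR4+ in 4 of 4 mice had other orders of mice in FCGR4- libraries. The part of these cells in *Cd55* was not tested.

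The proteases that act next to C1q had fitted values of the opposite sign to the C1q chains. All 8 tested genes of the classical and lectin pathway proteases and C4 had negative fitted log2 fold changes, although that of *C4b* turned to 0.52 in mice 1 and 2 alone and was also positive without mouse 3 or without mouse 4. Its copy *C4a* likewise had log2 ratios of 0.37 and 0.71 in mice 1 and 2 and of -0.69 and -1.03 in mice 3 and 4. Of the 8, 4 were lower in 4 of 4 mice (10.4% of all genes), and 1 (*C1s1*) passed the test (1.19% of all genes were called lower). The fibroblast and preadipocyte markers given above, which were lower in FCGR4+ in 4 of 4 mice and summed to 861, 340.1, 1472, and 579 normalized CPM in the FCGR4- libraries of mice 1 to 4, put these libraries in the same order as *C1s1* and *C1s2* did. Their part in these values was not tested. *C1s2*, a near copy of *C1s1*, was measured at 0.48 to 0.87 normalized CPM in FCGR4+ and at 1.74 to 5.99 in FCGR4- libraries (log2 fold change -2.12 ± 0.54, adjusted *P* = 0.210). *C1rb*, of the C1r proteases, lay between 5.79 and 10.9 and between 8.74 and 28.9 (-0.76 ± 0.24, adjusted *P* = 0.332). Counts of such copies may be exchanged, since 60.5% of the 50-base words of *C1rb*, 35.1% of those of *C1s1*, and 26.9% of those of *C1s2* occur in other genes. *C4b*, which encodes the C4 cleaved by C1s, was the highest of this role per length, at 101 to 267 against 156 to 294 normalized CPM (-0.19 ± 0.30, adjusted *P* = 0.838). For *C4b*, 34.6% of the words occur in its copy *C4a*.

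Among lectin pathway recognition genes, 3 of 7 were tested and all had negative log2 fold changes that did not pass the test. The highest of them per length was *Fcna*, which encodes ficolin A (25.4 to 107 against 31.2 to 95.7 normalized CPM, -0.41 ± 0.28, adjusted *P* = 0.648), whose log2 fold change turned to 0.25 in mice 1 and 2 alone. Of 6 terminal components besides *C6*, 3 were tested and none passed. *C7*, a neighbor of *C6* on chromosome 15 with 173794 bases between them, was measured at 1.43, 3.00, 0.83, and 1.598 normalized CPM in FCGR4+ and at 12.4, 4.94, 12.8, and 7.33 in FCGR4- macrophages, without overlap (-2.50 ± 0.53, adjusted *P* = 0.130). Its FCGR4- levels, too, had the same order of mice as the fibroblast and preadipocyte markers, and their part was not tested.

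Of 7 soluble inhibitors, 3 were tested and none passed the threshold. *Serping1*, which encodes the C1 inhibitor, was measured at 16.4, 23.3, 22.9, and 27.6 normalized CPM in FCGR4+ and at 86.6, 36.3, 148, and 68.3 in FCGR4- macrophages, without overlap, and lay just outside the threshold (-1.77 ± 0.35, adjusted *P* = 0.103). Its FCGR4- levels had the same order of mice as the fibroblast and preadipocyte markers. Those of *C1rb* and *C6* did as well, whereas those of *C3*, *Cd55*, *Clu*, *Vtn*, and *Vsig4* did not. In FCGR4+ libraries the order of *C1s1*, *C1s2*, *C1rb*, *C6*, *C7*, and *Serping1* differed from that of the markers. The part of the markers was not tested. *Clu*, clusterin (-1.69 ± 0.44, adjusted *P* = 0.215), and *Vtn*, vitronectin (-1.81 ± 0.48, adjusted *P* = 0.227), were lower in 4 of 4 mice, both from low levels, with at most 5.85 and 0.72 normalized CPM in FCGR4+ and 34.9 and 2.29 in FCGR4- libraries. The 6 membrane inhibitors included 4 with positive values, among them *Cr1l* (Crry), the highest per length, at 87.5 to 120 against 83.6 to 117 normalized CPM (0.01 ± 0.13, adjusted *P* = 0.978, and -0.077 with scaling by library size only).

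Of 10 further receptors, 9 were tested and none passed. *Vsig4*, which encodes the receptor CRIg for C3 fragments on resident macrophages, was lower in 4 of 4 mice, at 23.6, 47.2, 56.0, and 12.9 normalized CPM in FCGR4+ and 41.1, 67.2, 82.7, and 36.7 in FCGR4- macrophages (-0.84 ± 0.19, adjusted *P* = 0.165). *Itgb2*, the β chain of complement receptors 3 and 4 and the highest of these further receptors per length over both populations, lay between 383 and 1032 against 468 and 1144 (-0.41 ± 0.20, adjusted *P* = 0.550). Over all 11 tested receptors, *C3ar1* was lowest in *P* among those with a positive value, and *Vsig4* among those with a negative one. The 14 genes of the list that were not tested had too few counts, such as *Hc* (C5), *C8a*, *C8b*, *Mbl1*, and *Mbl2*, whose products are known mainly from the liver.

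**Figure D5:**
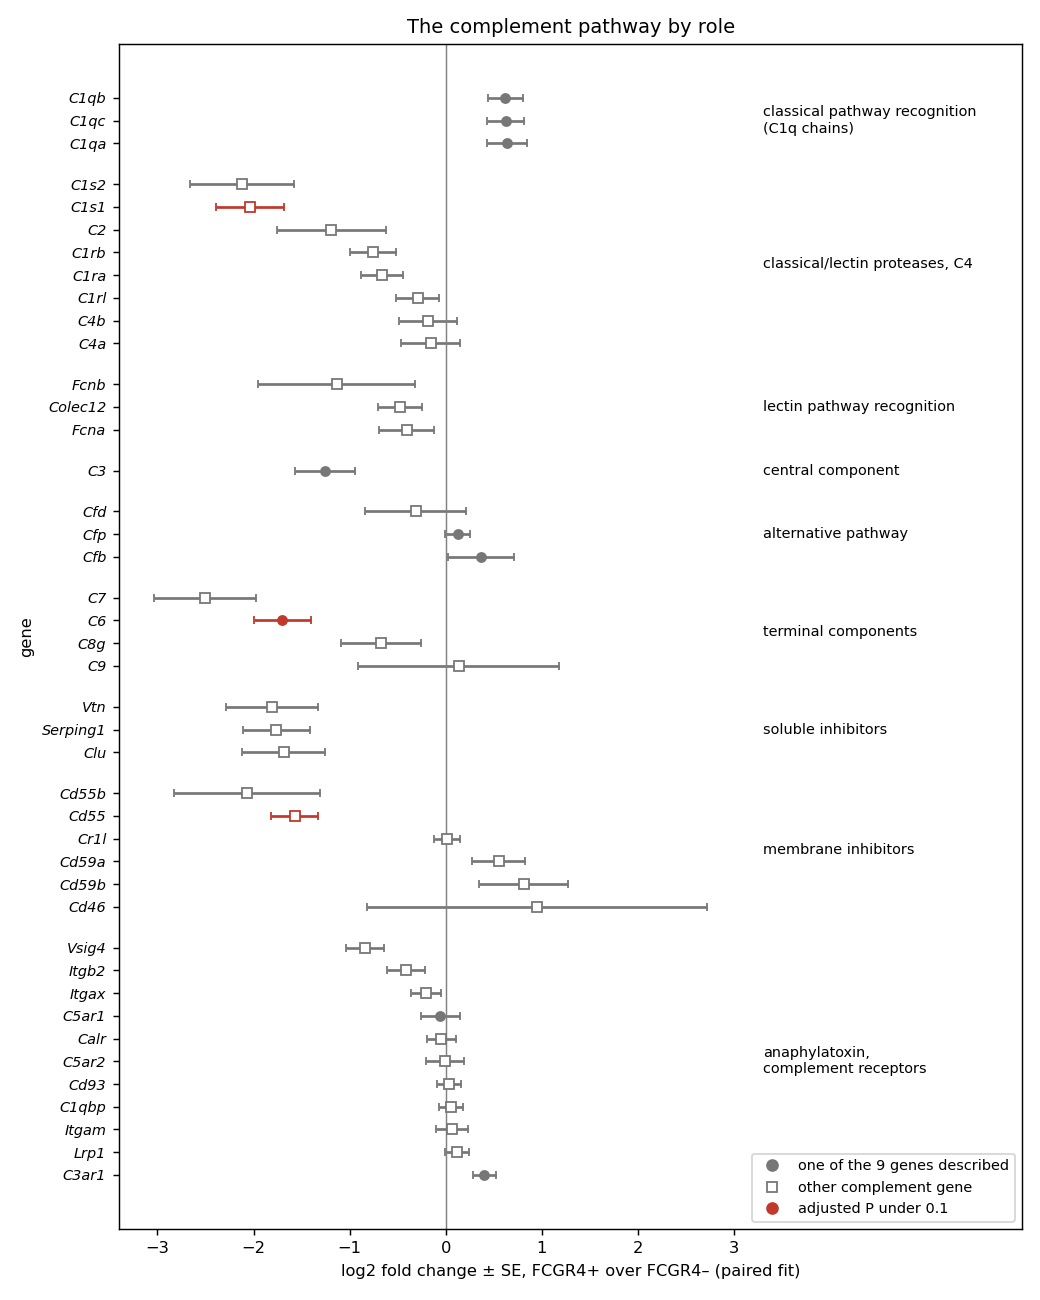
Log2 fold change ± SE, FCGR4+ over FCGR4-, from the paired edgeR fit for the 9 complement genes (filled circles) and the 33 further complement genes tested (open squares), grouped by role; red marks an adjusted *P* under 0.1. The C1q chains lie near 0.62 while every gene of the classical and lectin pathway proteases and C4 lies at or below -0.16. The red points are *C1s1*, *C6*, and *Cd55*, all negative.

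For each member, the 3 genes most alike in pattern were taken as those with the highest Pearson *r* on log2 CPM over the 8 libraries, among tested genes with a mean of at least 10 normalized CPM. The 8 libraries come in pairs from 4 mice and share depth, population, and mouse, so these are descriptions without a test. *C1qa* was most like *C1qb* (*r* = 0.981) and *C1qc* (*r* = 0.965), followed by *Tk1* (*r* = 0.952), and *C1qb* was most like *C1qa*, followed by *Mdp1* (*r* = 0.961) and *Gins4* (*r* = 0.960). *C1qc* was most like *C1qa*, followed by *Glul* (*r* = 0.959) and *Trim14* (*r* = 0.958). *C3* was most like *Qsox1* (*r* = 0.983), *Gm26809* (*r* = 0.963), and *Mmp2* (*r* = 0.954), the last a matrix metalloproteinase known from fibroblasts. *C6* was most like *Cd163* (*r* = 0.983), the hemoglobin scavenger receptor of resident macrophages, then *Ncbp3* (*r* = 0.953) and *Ccnd2* (*r* = 0.936). *Cfb* was most like *Mtfr1l*, *Vamp3*, and *Gnb1* (*r* of 0.963, 0.948, and 0.923), and *Cfp* like *Cmtm7*, *H2-T-ps*, and *Rilpl2* (*r* of 0.969, 0.968, and 0.965). *C3ar1* was most like *Gm8326*, *Nceh1*, and *Nagk* (*r* of 0.964, 0.962, and 0.952), and *C5ar1* like *Gm6201*, *Lcp1*, and *Rab11b* (*r* of 0.989, 0.983, and 0.965). Only the C1q chains had other members among these genes.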

How the data were processed

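Bulk RNA-Seq counts of 8 libraries, from FCGR4+ and FCGR4- eWAT macrophages of 4 mice, were used. The authors mapped read pairs to mm10 with STAR and counted them per gene with featureCounts 1.6.3 on GENCODE M18. The deposited values are these counts, unnormalized. Pairs with several mapping places were counted at each, strand was not used, and pairs on bases of 2 genes were not counted.

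Symbols were matched for 54079 of 54146 gene IDs. Genes that reached 10 counts in 4 or more libraries were normalized by TMM and tested by edgeR 4.0.16 (R 4.3.3), quasi-likelihood, with mouse as a block as in the study's methods, Benjamini-Hochberg adjustment and a threshold of 0.1. Levels per length used the exonic length in the deposited table. Per-mouse ratios used log2 CPM with a prior count of 2. The block rests on animals: libraries of 1 mouse deviated together from the population means (*r* between 0.291 and 0.428, against a median of -0.0615 between mice). Libraries of a population differed beyond sampling noise (chi-square per degree of freedom of at least 76.2 in 12 pairs), so none was a copy of another. The value was lowest between mice 3 and 4 in both populations (76.2 in FCGR4+ and 153 in FCGR4-). Each mouse was taken as a replicate, and this value cannot show that the mice are independent. Scripts were tested on simulated counts.

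The members, the wider complement list, and the marker lists were chosen with earlier results of these data known. A gene of the wider list and a gene of the B cell list are not reported here and were left out of the lists' counts. Named are all members and, of the wider list, genes past the threshold, genes with 1 direction in 4 mice and an unadjusted *P* under 0.05, and the highest gene per length in each role. Alternatives were no replicate block, DESeq2 1.42.0, edgeR's newer estimate, RLE size factors, scaling by library size only, no filter, 10 counts in every library, a threshold of 0.05, TPM, leaving out each mouse, and each library-name prefix alone. The interaction with the prefix was added after the data had been seen. What the prefix stands for is not given in the sources used here.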

Additional observations from a re-analysis of the deposited data

Results flagged for a closer look

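2 of 72 groups of 4 libraries held a library far from the other 3, where 3.6 would be flagged by chance. *C3* in FCGR4- macrophages was 671 normalized CPM in mouse 3 against 244 to 269 in the other mice, a gap of 0.940 of the group's range. *Clu* in FCGR4- macrophages was 34.9 normalized CPM in mouse 3 against 3.68 to 8.42, a gap of 0.848 of the range.

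The log2 ratio had 1 sign in mice 1 and 2 and the other in mice 3 and 4 for 4 of the 24 named genes. The difference between the pairs, tested as an interaction term in edgeR, was 0.86 for *C5ar1* (adjusted *P* = 0.303), 1.42 for *C4b* (adjusted *P* = 0.303), 1.31 for *Fcna* (adjusted *P* = 0.303), and 0.34 for *Cfp* (adjusted *P* = 0.447). Outside the 24, *C4a*, *C5ar2*, and *Calr* of the wider list had this pattern too. By the same test their differences were 1.40 (adjusted *P* = 0.303), 0.70 (adjusted *P* = 0.354), and 0.43 (adjusted *P* = 0.409). The ratios of mice 1 to 4 were 0.38, 0.66, -0.78, and -1.01 for *C4b*, 0.24, 0.26, -0.90, and -1.23 for *Fcna*, and 0.27, 0.31, -0.08, and -0.01 for *Cfp*. No gene passed an adjusted *P* of 0.1 for this term, so the difference was not established for any of them.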

How the results depend on the processing

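Of the 9 members, 1 passed in the paired edgeR fit, 6 by DESeq2, 5 with no filter, 2 with the newer quasi-likelihood estimate, 2 with 10 counts in every library, and 0 with no replicate block, in mice 1 and 2 alone, in mice 3 and 4 alone, at a threshold of 0.05, and without any 1 mouse (0 to 0). Of the 33 further complement genes tested, 2 passed, against 10 by DESeq2, 10 with no filter, 7 with the newer estimate, 5 with 10 counts in every library, 1 with no replicate block, 0 in mice 3 and 4 alone, 0 at a threshold of 0.05, and 0 to 2 without 1 mouse. Over all genes 217 passed, against 1024 by DESeq2, 1054 with no filter, 632 with the newer estimate, 256 (of fewer genes, 13923) with 10 counts in every library, 48 with no replicate block, 113 in mice 1 and 2 alone, 113 in mice 3 and 4 alone, 76 at a threshold of 0.05, and 84 to 163 without 1 mouse, the fewest without mouse 1. The median of all genes moved to -0.16 with no filter and to -0.09 with library size alone. The cause of these differences was not tested.

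For the log2 fold changes of the 24 named genes, *Fcgr4* included, 248 of 311 alternative values kept direction and side of the threshold, 35 newly passed it, 14 no longer passed it, and 14 reversed. The reversed values were -0.17 for *Cfb* and -0.068 for *Cfp* in mice 3 and 4 alone. In mice 1 and 2 alone they were 0.37 for *C5ar1*, 0.52 for *C4b*, 0.25 for *Fcna*, and -0.089 for *Cr1l*. Leaving out each mouse in turn gave -0.25 to 0.084 for *C5ar1*, -0.48 to 0.093 for *C4b*, and -0.037 to 0.083 for *Cr1l*, each reversed without mouse 3 and without mouse 4. With library size alone *Cr1l* was -0.077, and with 10 counts in every library *Cr1l* was -0.0038. None of these 6 genes passed the threshold in any fit. With the block left out, the C1q chains, *C3*, *C3ar1*, and *C6* kept their direction. Levels in TPM kept the members' order. With 4 mice and 19 counts in its lowest library, the value of *C6* rests on few reads.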
